A study of Mus musculus with 12 samples.

Results

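The Arp2/3 complex is the machine that starts a new actin filament as a branch on the side of an existing one. Its subunit genes were followed as 9 transcripts, taken by gene symbol from the table of group values, namely ARPC1A, ARPC1B, ARPC2, ARPC3, ARPC4, ARPC5, ARPC5L, ACTR2 and ACTR3. These are 9 of the 13957 gene symbols listed, and all 9 were listed at both sites. The members were chosen from their names, as subunits of 1 complex, after the group values of these data had been seen, those of ARPC1B in particular. The values that led to the choice are the same ratios given here, so they are a description and carry no test.

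Male mice received a spinal cord contusion at thoracic level 9 when 4 months old, and 14 days later RNA was taken from cord segments of about 2 mm on either side of the lesion. All animals carried the human ApoE4 variant, in mice that the study calls TR, an abbreviation it leaves unexplained. The 12 libraries form 4 groups of 3, labelled synj1+/+ above, synj1+/- above, synj1+/+ below and synj1+/- below. The label synj1+/- stands for 1 inactive and 1 normal allele of synaptojanin 1, and these groups are called heterozygous-labelled, the synj1+/+ groups wild-type-labelled. Mice without a contusion and mice with human ApoE3 were not analysed here, so the comparison is between injured synj1 genotypes. The labels do not tie a segment above to a segment below from the same mouse.

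Active Arp2/3 needs a nucleation-promoting factor. WASP-family proteins bring it together with actin monomers under the control of Cdc42, Rac and the membrane lipid phosphatidylinositol 4,5-bisphosphate, the lipid that synaptojanin 1 dephosphorylates. The actin-related proteins Arp2 (ACTR2) and Arp3 (ACTR3) mimic the first subunits of the new filament, ARPC2 and ARPC4 form the core that grips the mother filament, and ARPC1, ARPC3 and ARPC5 complete the complex. Mammals have alternative versions of some subunits, ARPC1A or ARPC1B, ARPC5 or ARPC5L, and ACTR3 or ACTR3B. ARPC1B is the version known for its high expression in blood and immune cells, and branched actin drives migration and phagocytosis in such cells as well as spine and growth cone motility in neurons.

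ARPC1A and ARPC1B lie next to each other on chromosome 5 in the mouse genome GRCm38 (GENCODE M21), both on the plus strand, ARPC1A at chr5:145083830-145108761 and ARPC1B at chr5:145114215-145130705. Only 5453 bases separate them. Their starts are shown because these neighbouring genes, which encode versions of 1 subunit, gave different ratios at both sites. Each line below is the plus strand 5′ to 3′ from 100 bases before to 20 bases after the start in RefSeq (GRCm38.p6), at chr5:145083769-145083888 for ARPC1A and chr5:145114156-145114275 for ARPC1B.
ARPC1A: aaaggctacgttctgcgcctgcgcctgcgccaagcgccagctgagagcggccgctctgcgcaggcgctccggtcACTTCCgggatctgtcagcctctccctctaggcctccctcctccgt
ARPC1B: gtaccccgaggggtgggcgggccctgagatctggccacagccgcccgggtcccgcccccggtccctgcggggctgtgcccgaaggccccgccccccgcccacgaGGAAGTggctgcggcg
Capitals mark the letters GGAAGT or their reverse complement ACTTCC, the core of many ETS family sites. Of the 8 subunits with a RefSeq promoter, 7 held these letters on either strand between 250 bases before and 50 after the start (87.5%), against 7809 of 32851 promoters of that length (23.8%). The subunit without them was ARPC5, and ARPC5L was not matched. The letters were picked after the 8 sequences had been seen, so the comparison is a description. The starts of ARPC1A and ARPC1B both hold these letters, and both were among the sequences seen when the letters were picked. Any bearing of the letters on the transcript ratios was not tested.

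A deposited value pools 3 libraries, so the spread between mice cannot be computed and no p-value or error can be given for any ratio here. Values are FPKM (fragments per kilobase of transcript) on an upper quartile scale, read as FPKM plus 1 because the lowest value is exactly 1. A constant of 1 and a minimum set at 1 cannot be told apart in these values. Levels of different genes are compared per length, as FPKM. Whether the values of different genes lie on a common scale was not tested. Above the lesion with the wild-type label SYNJ1 (1905) was above the actin gene ACTB (1854), and the ribosomal protein gene RPL35 was at 10.2. The order of subunits, the shares of alternative versions and the sums by position all rest on this unit. Ratios are given as the heterozygous-labelled over the wild-type-labelled group. A gene was counted as past the threshold, lower or higher, where the larger of these 2 values exceeded the smaller by at least 25%. Reads per library were equalized by the authors within each site and the sites were normalised separately, so values above and below the lesion are set side by side only with that limit.

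The targeted gene ran against its label. Above the lesion SYNJ1 was at 1905 with the wild-type label and at 2404 with the heterozygous label. Below it the values were 1847 and 2593, so SYNJ1 was 1.26 and 1.40 times as high in the heterozygous-labelled groups. The study genotyped its mice by PCR and measured synj1 by qPCR apart from these libraries. Whether labels of these libraries were exchanged was not tested and cannot be told from the group values. Directions are given by the group labels as deposited. Markers of the labelled tissue were abundant. Over the 4 groups GFAP of astrocytes ranged from 8485 to 12975, SNAP25 of neurons from 5239 to 6929 and MOBP of oligodendrocytes from 9724 to 10916.

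All 9 subunits were well above the lowest values of the table. Above the lesion in the wild-type-labelled group, ARPC4 had the highest value of the 9 at 215, followed by ARPC2 at 198, ACTR3 at 146, ARPC5L at 124, ACTR2 at 96.5, ARPC1A at 76.5, ARPC1B at 53.4, and ARPC3 and ARPC5 at 43.5 each. The lowest of these, ARPC5, was higher than 54.5% of listed genes, and ARPC4 was higher than 87.7%. The core subunits ARPC4 and ARPC2 also held the first and second place in the other 3 groups. With 1 value per group, neighbours in this order cannot be said to differ.

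ARPC1B was the subunit with the lowest ratio at both sites. It encodes one version of the WD-repeat subunit through which nucleation-promoting factors are thought to contact the complex. Above the lesion its value was 53.4 with the wild-type label and 38.3 with the heterozygous label, which is 1.39-fold lower (log2 ratio -0.48). Below the lesion the values were 66.9 and 47.0, which is 1.42-fold lower (log2 ratio -0.51). Within each genotype it was higher below the lesion than above, and at each site it was lower in the heterozygous-labelled group. A lower ratio was found for 423 genes (3.10% of those listed) above the lesion and 676 (5.48%) below it. ARPC1B was known to be lower when the set was drawn up, so its place among all genes is a description.

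ARPC1A, the alternative version of the same subunit, had nearly the same value in all 4 groups. It was 76.46 and 76.99 above the lesion with the wild-type and heterozygous labels, and 77.52 and 77.61 below it, with log2 ratios of 0.01 and 0.00. Thus ARPC1A was close to level while its neighbour on the chromosome was past the threshold, lower, at both sites. In the plot of subunit values the 4 ARPC1A points lie at the same height, and the ARPC1B points split by genotype.

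**Figure D1:**
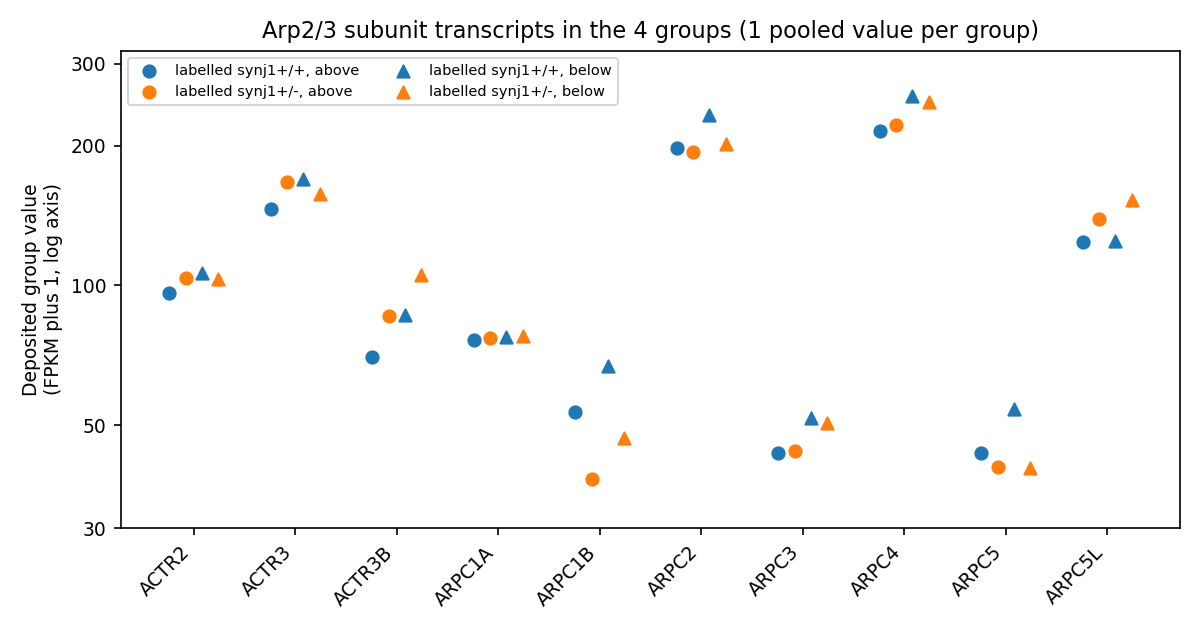
Deposited group values of the 9 subunits and of ACTR3B on a log axis (FPKM plus 1), 1 point per group that pools 3 libraries and no error bars because single libraries are not given. Circles are above and triangles below the lesion, blue is labelled synj1+/+ and orange labelled synj1+/-; ARPC1B is lower in orange at both sites (53.4 to 38.3 and 66.9 to 47.0), while ARPC1A stays between 76.46 and 77.61.

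Reads of ARPC1B can also come from PDAP1, a gene on the opposite strand that overlaps it. The library kit does not keep the strand. Of the 5511 stretches of 100 bases (the read length) in the annotated ARPC1B transcripts, 936 (17.0%) also occur, read on either strand, in transcripts of another gene, 832 of them in PDAP1 and 104 in Gm5637. None occurs in ARPC1A. PDAP1 had values of 40.1 and 41.6 above the lesion and 42.1 and 45.5 below it with the wild-type and heterozygous labels, log2 ratios of 0.05 and 0.11. Its ratios were thus on the other side of 1 from those of ARPC1B, and how the shared reads were divided between the genes is not given in the sources used here.

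The ARPC5 position likewise has alternative versions, and they went opposite ways below the lesion. ARPC5 (chr1:152766542-152775597, plus strand) and ARPC5L (chr2:39005348-39015877, plus strand) encode a small subunit next to Arp2. The ARPC5 value below the lesion was 54.1 with the wild-type label and 40.5 with the heterozygous label, 1.34-fold lower (log2 ratio -0.42). ARPC5L below the lesion was 125 and 153, a ratio of 1.23 (log2 ratio 0.29). ARPC5 was past the threshold and ARPC5L just short of it. Above the lesion both differences were smaller: ARPC5 went from 43.5 to 40.7 (log2 ratio -0.09) and ARPC5L from 124 to 139 (log2 ratio 0.16). The ARPC5 values of the other 3 groups lay between 40.5 and 43.5, so the wild-type-labelled group below the lesion stood alone at 54.1. ARPC5L overlaps RPL35, a ribosomal protein gene on the opposite strand, and WDR38 on its own strand, but shares no stretch of 100 bases with any other gene. RPL35 was at 10.2 and 10.3 above the lesion and 15.1 and 11.0 below, and WDR38 was not listed.

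The core subunits ARPC2 (chr1:74236084-74268209, plus strand) and ARPC4 (chr6:113378115-113390448, plus strand) hold the mother filament. Above the lesion ARPC2 was 198 and 194 and ARPC4 215 and 222 with the wild-type and heterozygous labels, log2 ratios of -0.03 and 0.04. Below the lesion ARPC2 was 233 and 201, a log2 ratio of -0.21, and ARPC4 was 256 and 248, a log2 ratio of -0.05. Neither reached the threshold at either site. ARPC4 overlaps TTLL3 on the same strand and shares 8.01% of its 100-base stretches with it, and TTLL3 itself was at 19.3 to 23.3 in the 4 groups.

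ARPC3 (chr5:122391878-122414184, plus strand) helps to join Arp3 to the complex. Its value was 43.5 and 44.0 above the lesion and 51.8 and 50.6 below it, with log2 ratios of 0.02 and -0.03. It was among the 4 subunits, with ARPC1A, ARPC4 and ACTR2, whose log2 ratio lay between -0.05 and 0.11 at both sites.

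The actin-related subunits were slightly higher above the lesion and slightly lower below it in the heterozygous-labelled group. ACTR2 lies at chr11:20062304-20112913 and ACTR3 at chr1:125392905-125435727, both on the minus strand. ACTR2 went from 96.5 to 104 above (log2 ratio 0.11) and from 106 to 103 below (log2 ratio -0.04). ACTR3 went from 146 to 167 above (log2 ratio 0.19) and from 169 to 158 below (log2 ratio -0.11). ACTR3 had the highest ratio of the 9 subunits above the lesion, where 12.0% of all genes had a higher one. Pseudogenes share 11.3% of its 100-base stretches (Gm15899 and Gm8822), so part of its reads could be counted elsewhere. ACTR3B, the alternative Arp3 and not among the 9, was at 70.2 and 85.9 above the lesion and at 86.2 and 105 below it. Its ratio of 1.22 at both sites lay just short of the threshold.

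Counted together, 1 of 9 subunits was past the threshold lower above the lesion (ARPC1B), against 7.44% of all 13645 genes listed there, and 0 were that much higher, against 4.18%. Below the lesion 2 of 9 were lower (ARPC1B and ARPC5), against 11.5% of 12337 genes, and 0 were higher, against 8.07%. Since ARPC1B was known to be lower when the set was drawn up, nothing is read from these counts. The median log2 ratio of the 9 was 0.02 above the lesion (all genes -0.0039) and -0.05 below it (all genes 0.014). Ratios below 1 were seen for 3 of 9 subunits above, where 6960 of 13645 genes had one, and for 7 of 9 below, where 5825 of 12337 genes had one. The median of the 9 was near 0 at both sites. ARPC1B was the only member past the threshold at both, which was known when the set was drawn up.

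**Figure D2:**
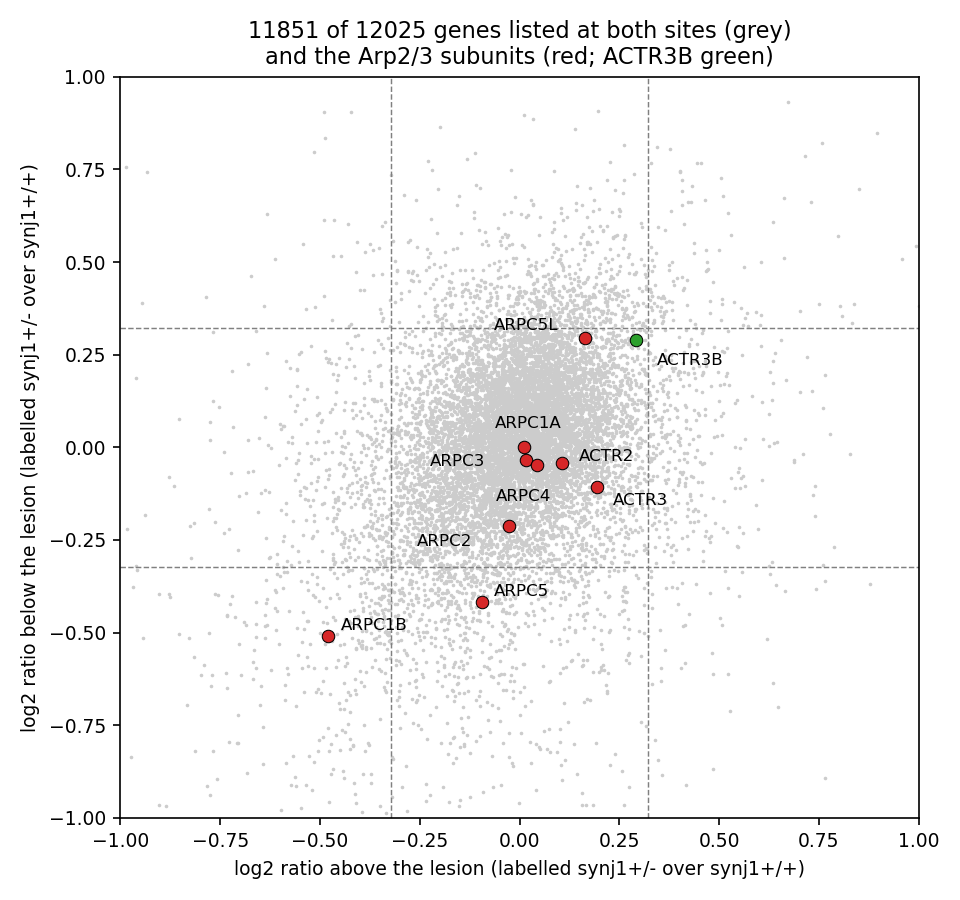
Log2 ratio, labelled synj1+/- over labelled synj1+/+, above the lesion (x axis) and below it (y axis), for genes listed at both sites in grey (11851 of 12025 lie within the axes), the 9 subunits in red and ACTR3B in green. Dashed lines mark the 25% threshold; ARPC1B (-0.48, -0.51) lies past them on both axes, ARPC5 (-0.09, -0.42) on the y axis, and ACTR3B (0.29, 0.29) and ARPC5L (0.16, 0.29) lie within them on the higher side.

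Alternative versions fill the same place in a complex, so their shares were compared. A share within a group does not depend on how that group was scaled, which holds for any pair of genes. The share of ARPC1B in the summed FPKM of ARPC1A and ARPC1B was 41.0% above the lesion and 46.3% below it in the wild-type-labelled groups. In the heterozygous-labelled groups it was 32.9% and 37.5%. ARPC1B was the lesser version in all 4 groups, and both heterozygous-labelled values were below both wild-type-labelled ones. The share of ARPC5L in ARPC5 plus ARPC5L was 74.3% and 77.6% above the lesion and 70.0% and 79.4% below it, so ARPC5L was the major version everywhere and more so in the heterozygous-labelled groups. ACTR3B made up 32.3% and 33.8% of the Arp3 transcripts above the lesion and 33.6% and 40.0% below it. No member of these pairs shares a stretch of 100 bases with its partner in the annotated transcripts, so a read that matches 1 version without a mismatch does not match the other.

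**Figure D3:**
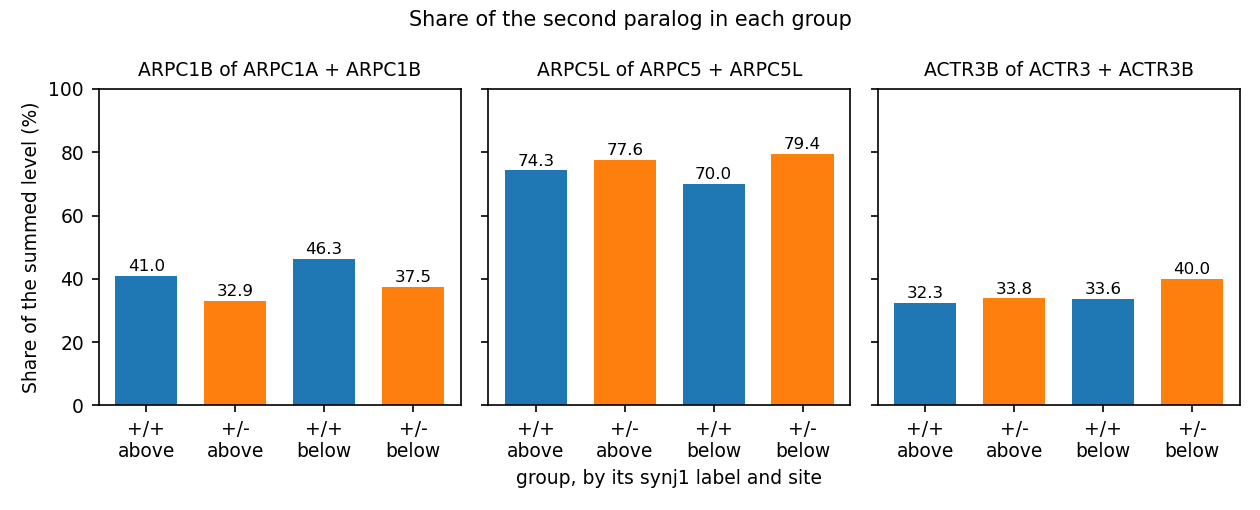
Share (%) of ARPC1B, ARPC5L and ACTR3B in the summed FPKM of each pair of alternative subunits, 1 bar per group with no error bars because each group has 1 pooled value. The ARPC1B share is lower in the orange bars (labelled synj1+/-) than in the blue bars at both sites, and the ARPC5L and ACTR3B shares are higher.

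Summed by position in the complex, the ARPC1 and ARPC5 differences were smaller than those of ARPC1B and ARPC5 alone. ARPC1A plus ARPC1B went from 128 to 113 above the lesion (log2 ratio -0.17) and from 142 to 123 below it (log2 ratio -0.22). ARPC5 plus ARPC5L went from 165 to 177 above (log2 ratio 0.10) and from 177 to 192 below (log2 ratio 0.11), so at this position the lower ARPC5 was outweighed by the higher ARPC5L. ACTR3 plus ACTR3B went from 214 to 251 above (log2 ratio 0.23) and from 254 to 261 below (log2 ratio 0.04). No position reached the threshold at either site. Above the lesion the summed level was highest for Arp3 and lowest for ARPC3 in both groups. With the wild-type label Arp3 (214.3) was nearly level with ARPC4 (214.1).

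Between the sites, and with the limit that these were normalised separately, subunit values tended to be higher below the lesion. In the wild-type-labelled groups all 9 subunits were higher below than above, with a median log2 difference of 0.24, while of all 12025 genes with values at both sites 49.8% were higher below. In the heterozygous-labelled groups 6 of 9 were higher below, with a median of 0.05, against 55.5% of genes. ARPC1B was higher below by 0.33 on the log2 scale with the wild-type label and by 0.30 with the heterozygous label, so its offset between sites was similar in both. For ARPC5 the log2 difference of below over above was 0.32 and -0.01, and for ACTR3 it was 0.21 and -0.08. The log2 ratio between genotypes below the lesion minus that above it was accordingly -0.32 for ARPC5, -0.30 for ACTR3 and -0.03 for ARPC1B. Whether any of these ratios differs between the sites was not tested, since single libraries are not given.

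The regulators of the complex were read from lists of activators and inhibitors that were likewise written with earlier results known. Of 10 WASP family proteins and partners listed above the lesion, 1 was past the threshold lower (HCLS1) and 0 higher, with a median log2 ratio of -0.07. Of 9 listed below, 2 were lower (HCLS1 and WAS) and 1 higher (NCKIPSD), with a median of 0.06. Over all genes, 7.44% were lower and 4.18% higher above the lesion, and 11.5% and 8.07% below it. HCLS1, the form of cortactin found in blood cells, binds and steadies Arp2/3 branches, and went from 10.0 to 7.30 above the lesion (log2 ratio -0.46) and from 12.1 to 9.21 below it (log2 ratio -0.39). The widely expressed form CTTN was at 212 and 204 above and 210 and 198 below, so HCLS1 made up between 3.02% and 5.06% of the pair. WAS, the blood cell version of N-WASP, was low throughout, at 3.18 and 2.64 above (log2 ratio -0.27) and 3.78 and 2.90 below (log2 ratio -0.38). N-WASP itself (WASL) was at 52.7 and 48.0 above and 47.0 and 50.9 below, and did not reach the threshold. NCKIPSD, an SH3 adaptor that binds N-WASP, was level above the lesion (111 and 111) and went from 105 to 138 below it (log2 ratio 0.40).

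The WAVE complex passes Rac signals to Arp2/3. Above the lesion 11 of its 11 genes were listed, and the 1 past the threshold was NCKAP1L, the blood cell version of the scaffold NCKAP1, lower. Below the lesion it was again the 1 past the threshold of 8 listed. Over all genes 7.44% were lower above the lesion and 11.5% below it, so nothing about the list is read from these counts. NCKAP1L went from 22.5 to 14.7 above (log2 ratio -0.61) and from 26.2 to 20.1 below (log2 ratio -0.38). NCKAP1 was listed above the lesion, where it went from 104 to 112 (log2 ratio 0.11) and the NCKAP1L share of the pair was 17.3% and 11.0%. The median of the list was 0.07 above and 0.04 below. HCLS1, WAS and NCKAP1L had ratios below 1 at both sites, as ARPC1B did. Other genes of the lists that are known from blood cells did not share this: the log2 ratio was 0.00 above and -0.02 below for CORO1A, -0.02 and 0.12 for FMNL1, and -0.04 and 0.24 for ABI3. Ratios below 1 at both sites were also seen for CTTN, CYFIP1 (log2 ratios -0.21 and -0.23), WASF2 (-0.22 and -0.13) and BRK1 (-0.07 and -0.15). In the WASP family list 8 of 10 genes were below 1 above the lesion and 3 of 9 below it. In the WAVE list these were 5 of 11 and 4 of 8, and among all genes 6960 of 13645 and 5825 of 12337.

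The WASH complex and the inhibitors stayed within the threshold at both sites. The 5 genes of the WASH complex, which activates Arp2/3 on endosomes, had medians of -0.04 above and -0.06 below. Of 7 inhibitors and debranching factors, 5 were listed above and 4 below, with medians of -0.01 and -0.11. The level of the actin that the complex uses was also similar: ACTB was 1854 and 1823 above and 1933 and 1802 below.

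Most markers of microglia and macrophages were lower in the heterozygous-labelled group at both sites. Of 18 listed above the lesion, 11 were past the threshold lower and 0 higher, against 7.44% and 4.18% of all genes. The median log2 ratio of these markers was -0.42, and their summed FPKM was 3598 and 2596. Of 16 listed below, 14 were lower and 0 higher, against 11.5% and 8.07% of all genes. The median of the markers there was -0.64, and the sums were 5378 and 3258. CSF1R, the receptor on which these cells depend, went from 182 to 137 above (log2 ratio -0.41) and from 168 to 139 below (log2 ratio -0.27). TYROBP went from 88.8 to 56.9 (log2 ratio -0.64) and from 133 to 73.5 (log2 ratio -0.85). AIF1 was 18.2 and 18.7 above the lesion (log2 ratio 0.04), where the other 17 markers had ratios below 1, and 27.0 and 14.2 below it (log2 ratio -0.93). No marker was at 0. The part of these cells in the ARPC1B result was not tested, and in bulk tissue fewer cells of a type and less RNA per cell cannot be told apart.

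Markers of other cells differed between the groups too. Of all genes, 7.44% were past the threshold lower and 4.18% higher above the lesion, and 11.5% and 8.07% below it. Fibroblast markers were lower in 5 of 5 cases at both sites, with medians of -0.52 above and -2.91 below, where their summed FPKM was 349 and 43.5 with the wild-type and heterozygous labels. Above the lesion the sums were 27.0 and 16.3, and some values lay near the lowest possible value of 1. There COL3A1 was at 5.26 and 1.73, LUM at 2.67 and 1.86, and DCN, the highest of the 5, at 10.6 and 7.54. The precision of such low values is unknown. Astrocyte markers had medians of -0.26 and -0.18, with 0 of 7 past the threshold above and 2 of 7 lower below (AQP4 and GFAP). Neuron markers had medians of 0.09 and 0.20, with 0 of 9 past the threshold above and 3 of 7 higher below (SNAP25, SYP and SYT1). Endothelial markers had medians of 0.14 and -0.14, with 1 of 6 higher above (KDR) and 1 of 6 lower below (CDH5). Oligodendrocytes were covered by MOG and MOBP alone, with log2 ratios from -0.18 to 0.17. Of 6 lymphocyte and neutrophil markers, S100A8 and S100A9 alone were listed, at 2.105 to 3.91 above the lesion, and both were past the threshold lower below it (log2 ratios -1.07 and -0.40). The part of these cells in the subunit values was not tested.

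**Figure D4:**
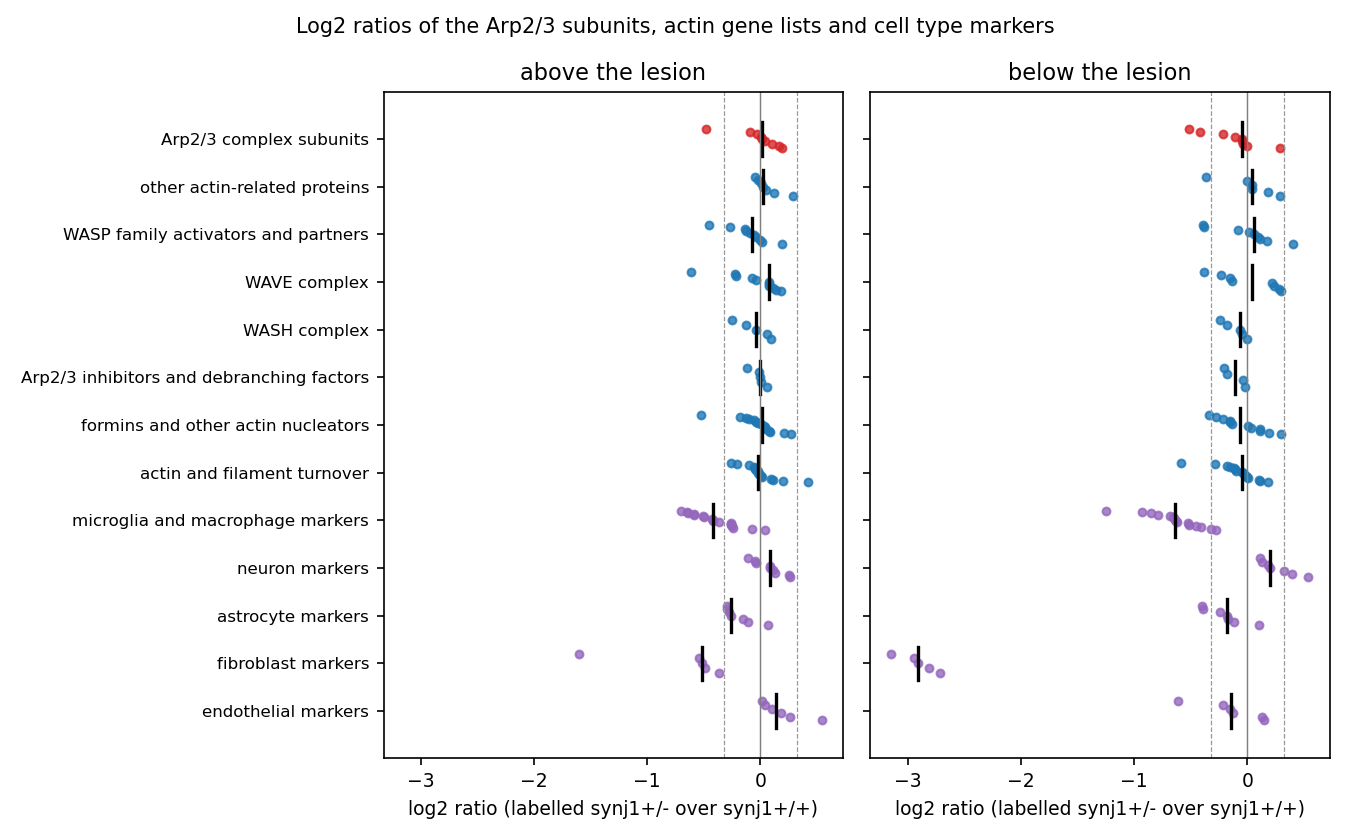
Log2 ratio, labelled synj1+/- over labelled synj1+/+, for each listed gene (points) and the list median (black bar), above the lesion on the left and below it on the right, with dashed lines at the 25% threshold. The Arp2/3 subunits (red) and actin lists (blue) have medians near 0, ARPC1B is the red point farthest left at both sites, and the microglia and macrophage markers (purple) have medians of -0.42 and -0.64.

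The genes with the most similar pair of ratios were sought among 9018 genes with an FPKM of at least 10 in all 4 groups, by the Euclidean distance to ARPC1B in log2 ratios above and below the lesion. The 5 nearest were SLA, OLFML3, ARHGAP10, DNASE1L1 and TMEM176A, at distances of 0.010 to 0.041. SLA, an adaptor protein of blood cells, went from 27.0 to 19.4 above the lesion (log2 ratio -0.47) and from 31.2 to 22.0 below it (log2 ratio -0.50). OLFML3 went from 25.2 to 18.2 (log2 ratio -0.47) and from 27.2 to 18.9 (log2 ratio -0.52). The log2 ratios of ARHGAP10 were -0.48 and -0.47. Those of DNASE1L1 were -0.45 and -0.53, and those of TMEM176A -0.44 and -0.49. The likeness rests on 2 ratios per gene, from libraries that the genes share.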

How the data were processed

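Libraries were made with a kit that does not keep strand (TruSeq RNA v2) and sequenced as paired reads of 100 bases. The authors reduced all libraries of a site to the same number of reads and normalised by upper quartile. The submitters' processing notes name STAR 2.5.4b, Cuffdiff 1.3.0 and GRCm38.p6. The gene annotation is not given in the sources used here. The deposited table holds 25985 lines, with 1 pooled value per gene, site and genotype in FPKM plus 1, as another unit than counts, and 0 columns of single samples, so the depth and spread of single libraries are unknown and no test, interval, paired fit or result without a replicate was possible. The authors' fold changes, log2 fold changes, p-values, q-values and significance marks were not used, nor was a shorter list that holds only these.

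Levels are the value minus 1, and ratios use values as deposited. Of 3 symbols on more than 1 line at a site, the highest line was kept. Members, gene lists and alternatives were chosen with earlier results of these data known. The genes named are the 9 subunits, SYNJ1, ACTR3B, genes of the pathway lists past the 25% threshold, AIF1, CSF1R and TYROBP, and the 5 genes most like ARPC1B. Other versions, overlapping genes and further genes of the lists were named after their values were seen. The counting of genes past the threshold was run on wild-type-labelled values changed by exact folds of 1.5 and 1.2, without noise. The folds fixed the outcome, so it checks the calculation and not the spread between libraries. The values of 1 pathway list are not reported here, although the pathway totals include it. Positions are from GENCODE M21 and promoters from RefSeq. Python 3.11.15, numpy 2.4.6, pandas 2.3.3 and matplotlib 3.10.9 were used.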

Additional observations from a re-analysis of the deposited data

How the results depend on the processing

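No paired analysis was possible because the table holds 1 pooled value per group, and for the same reason no replicate could be left out. The direction of each subunit ratio was kept under the alternatives run, apart from ARPC1A below the lesion, whose log2 ratio of 0.0017 became -0.013 when centred on the median of all genes. The largest shift of a log2 ratio was 0.039, for ARPC1B above the lesion with a constant of 5. Of 182 alternative values, 22 moved by more than 0.1 on the log2 scale, 2 percentage points of a share or 1.5 times a count, 20 of them where the fold that counts was changed. At 1.1-fold, 2 subunits were higher above the lesion (19.1% of all genes) and 1 below (27.5%), and 1 was lower above (23.0%) and 3 below (26.1%), where at the 25% threshold 0 were higher at both sites and 1 and 2 lower. Pathway genes at 1.1-fold were 11 lower and 7 higher above the lesion, and 20 lower and 12 higher below (at 25% 3 and 1 above, 6 and 1 below). At 1.5-fold, 0 subunits were lower above the lesion (1.93% of all genes) and 0 below (4.38%), 0 were higher (0.791% and 1.16%), and pathway genes were 1 lower and 0 higher at each site. With the constant of 1 removed, 5 pathway genes were lower above the lesion, with WAS among those added, and 2 were higher below, with SPIRE2 added. Depth per library is unknown, which leaves the precision of low values such as that of WAS unknown too.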

Other observations

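Actin genes outside the Arp2/3 pathway had list medians near 0. Formins and other nucleators, which start straight filaments without Arp2/3, had medians of 0.02 above the lesion (16 listed) and -0.06 below it (12 listed), and 1 gene was past the 25% threshold at each site, lower. This was FMN1, which went from 38.6 to 26.9 above the lesion (log2 ratio -0.52) and from 35.5 to 28.0 below it (log2 ratio -0.34). Genes of actin and filament turnover had medians of -0.02 (17 listed) and -0.04 (16 listed). TMSB10, which binds actin monomers, went from 57.6 to 77.1 above the lesion (log2 ratio 0.42) and from 78.2 to 70.5 below it (log2 ratio -0.15), so its ratio lay on opposite sides of 1 at the sites. CAPG, which caps filament ends and is abundant in macrophages, was 63.3 and 63.6 above the lesion (log2 ratio 0.01) and went from 94.2 to 62.8 below it (log2 ratio -0.59). For CAPG and ARPC5 the wild-type-labelled group below the lesion had the highest of the 4 values, and the other 3 lay close together. This was picked out after the values were seen, across sites that were normalised separately. The endothelial marker CDH5 had a like order (8.66 and 9.30 above, 16.1 and 10.6 below). How many genes share it was not counted. Among other actin-related proteins, ACTR5, a subunit of a chromatin remodeller, was past the threshold, going from 39.0 to 30.3 below the lesion (log2 ratio -0.36) after 38.1 and 36.9 above it (log2 ratio -0.05). Over all pathway lists, 3 of 77 listed genes were lower and 1 higher above the lesion (background 7.44% and 4.18%), and 6 of 66 were lower and 1 higher below it (background 11.5% and 8.07%), so neither count was above its background.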
